A study of Mus musculus with 9 samples.

Results

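The imprinted genes examined in 9 pieces of mouse liver tissue were 10 in number: H19, Meg3, Rian, Dlk1, Mest, Plagl1, Grb10, Cdkn1c, Peg3 and Ndn. They were taken as every probe set that the platform annotation gives to that symbol alone, which found 38 of the 34958 probe sets with a single symbol, for 9 of the 10 genes. No probe set carried H19 by itself. The 1 probe set that names H19 also names Mir675, a microRNA gene inside the H19 transcript, so its values are given apart and enter no count. The groups were tumor (3 pieces of a hepatocellular carcinoma with severe steatosis), adjacent-labelled liver (3 pieces of altered tissue with severe steatosis) and wild-type liver (3 pieces of normal tissue with mild steatosis). Tumor and adjacent pieces came from a single SART1+/- mouse and the wild-type pieces from a single wild-type mouse. The groups shared their background: both mice were 12-month-old C57Bl6 males on regular chow with no treatment, and the tumor had arisen spontaneously. All p-values below therefore measure the spread between pieces of an organ, and the genotype cannot be told apart from other differences between the 2 animals. The listed genes ask whether imprinted fetal genes return together in this tumor and the liver beside it, or only at particular loci.

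Imprinted genes are transcribed from only the maternal or only the paternal copy, according to DNA methylation laid down in the egg or sperm. Many of them act on fetal growth, are abundant in fetal liver and are silenced after birth, and many code for growth factors, growth inhibitors or long noncoding RNAs that lie in shared clusters. Meg3 and Rian are maternally expressed noncoding RNAs of the cluster on chromosome 12 that also holds the paternally expressed Dlk1, and in mouse they are thought to belong to a long shared transcription unit that continues into Mirg. H19 is the maternally expressed noncoding RNA beside the paternally expressed growth factor gene Igf2 on chromosome 7. These arrays measure the sum of both alleles and carry no information on methylation.

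The promoter windows of the chromosome 12 genes are shown because Dlk1 gave another readout than its neighbours Meg3 and Rian. Each window runs from 250 bases before to 50 bases after a transcript start and is written 5′ to 3′ on the strand of the gene, from RefSeq on GRCm38.p6. Capitals mark the hexamer TGCCGC on either strand (GCGGCA on the strand shown), the core that ZFP57, a protein that keeps methylation at imprinted control regions, recognises when it is methylated.
Meg3 (chr12:109540746-109541045, + strand): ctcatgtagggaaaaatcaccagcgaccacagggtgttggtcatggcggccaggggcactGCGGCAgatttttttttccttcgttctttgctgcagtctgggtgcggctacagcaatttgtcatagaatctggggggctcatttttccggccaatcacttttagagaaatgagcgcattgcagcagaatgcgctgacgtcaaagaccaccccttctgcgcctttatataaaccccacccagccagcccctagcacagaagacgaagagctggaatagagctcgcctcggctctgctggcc
Rian (chr12:109603695-109603994, + strand): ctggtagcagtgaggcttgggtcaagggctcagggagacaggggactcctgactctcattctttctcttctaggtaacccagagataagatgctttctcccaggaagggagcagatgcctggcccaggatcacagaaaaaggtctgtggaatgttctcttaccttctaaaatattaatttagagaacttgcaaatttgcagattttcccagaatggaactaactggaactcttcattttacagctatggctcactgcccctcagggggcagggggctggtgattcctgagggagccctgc
Dlk1 (chr12:109452573-109452872, + strand): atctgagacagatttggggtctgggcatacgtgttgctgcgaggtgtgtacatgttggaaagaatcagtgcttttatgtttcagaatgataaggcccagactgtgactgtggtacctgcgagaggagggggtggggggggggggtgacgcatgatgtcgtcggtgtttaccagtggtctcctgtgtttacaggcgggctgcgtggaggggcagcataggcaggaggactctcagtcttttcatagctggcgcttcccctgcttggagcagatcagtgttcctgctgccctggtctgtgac

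The Meg3 window shown, the first of 2, holds the hexamer at 1 place and 13 CpG dinucleotides. The Rian window holds 0 hexamers and 0 CpG, and the Dlk1 window 0 hexamers and 9 CpG. Over all 8 genes that the promoter table covers (Ndn, Peg3, Dlk1, Meg3, Rian, Mest, Plagl1 and Grb10), 5 of 12 windows held it, for Meg3, Mest, Plagl1 and Grb10, and the 2 of them that belong to Mest overlap almost entirely. Of all 32851 windows of the same length in the table, 11.6% held it. The most CpG-rich window was that of a Grb10 start, with 45 CpG, against a median of 7 over the table. At least 20 CpG were found in 2 of the 12 windows, against 26.5% of windows over the table. These matches describe the letters only.

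Several of the genes, the noncoding ones and the protein-coding Mest, also host microRNAs. By position and strand in RefSeq, 3 mature microRNAs lie within Meg3, 6 within Rian and 2 within Mest. By position alone, 2 lie within H19. The arms of 1 hairpin per host are printed, to show what a higher host transcript could carry. Capitals mark the seed, bases 2 to 8, and none of the 13 mature sequences shares a seed with another. The mature microRNAs themselves were not measured here.
mmu-miR-770-5p (Meg3, chr12:109563710-109563731): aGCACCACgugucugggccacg
mmu-miR-770-3p (Meg3, chr12:109563744-109563765): cGUGGGCCugacguggagcugg
mmu-miR-370-5p (Rian, chr12:109618270-109618289): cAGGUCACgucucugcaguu
mmu-miR-370-3p (Rian, chr12:109618305-109618326): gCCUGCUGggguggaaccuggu
mmu-miR-335-5p (Mest, chr6:30741314-30741336): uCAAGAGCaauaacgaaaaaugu
mmu-miR-335-3p (Mest, chr6:30741354-30741375): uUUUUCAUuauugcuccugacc
mmu-miR-675-5p (H19, chr7:142577112-142577133): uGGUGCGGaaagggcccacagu
mmu-miR-675-3p (H19, chr7:142577078-142577099): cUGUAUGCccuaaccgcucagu

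Values are the authors' deposited log2 expression per probe set. A probe set was tested when at least 3 of the 9 arrays had it above their own 40th percentile, with limma in a single model of the 3 groups and Benjamini-Hochberg adjustment over all 24140 tested probe sets. A call needed both an adjusted p below 0.05 and a log2 difference of 1 or more in either direction, which is 2-fold. Of the 38 member probe sets, 23 were tested, covering all 9 genes, and 15 were too dim. Of the 23, 14 lay above the percentile on all 9 arrays. In 4 the wild-type arrays were all at or below it (Meg3 1428765_at and 1436713_s_at, Rian 1427580_a_at, Grb10 1430164_a_at), and Peg3 1417355_at passed through its wild-type arrays alone. Probe sets that pass through a single group had to differ, so the counts describe the members and support nothing beyond that.

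Across the series, arrays of a group correlated at 0.996 to 0.998 over probe sets, against 0.959 to 0.984 between groups. Sart1 was at 7.77, 7.71 and 7.75 in tumor, 8.34, 8.39 and 8.38 in adjacent-labelled liver and 8.35, 8.32 and 8.36 in wild-type liver. By this probe set, 1448658_at, the adjacent pieces did not show less Sart1 than wild type (difference 0.03, SE 0.05, limma adjusted p = 0.696). They are named by their label. The dimmer 1442284_at differed by -0.14 in adjacent-labelled liver (adjusted p = 0.214) and by -0.33 in tumor (adjusted p = 0.0104). The position of the Sart1 probes on the altered allele was not determined here. The hepatocyte marker Alb was at 14.45 ± 0.03 in tumor, 14.49 ± 0.03 in adjacent-labelled liver and 14.45 ± 0.01 in wild-type liver (SD, n = 3). That is close to the brightest value of any array, 14.51, so it shows hepatocyte RNA to be present and says little about its amount. Cps1, a urea cycle enzyme of hepatocytes, was at 12.18 in tumor, 12.97 in adjacent-labelled liver and 13.54 in wild-type liver, and it fell in tumor by -1.37 (limma adjusted p = 2.97e-07). The 3′ minus 5′ difference of Actb, an RNA quality measure, was 0.59 ± 0.09 in tumor, 0.85 ± 0.05 in adjacent-labelled liver and 0.86 ± 0.02 in wild-type liver. That of Gapdh put the groups in another order, at 0.21 ± 0.01 in tumor, 0.16 ± 0.02 in adjacent-labelled liver and 0.27 ± 0.02 in wild-type liver. The part of RNA quality in the results was not tested.

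The 9 genes did not all move one way. Against wild-type liver, Meg3, Rian and Grb10 rose in both tumor and adjacent-labelled liver. Dlk1 rose in tumor, Mest rose and Peg3 fell in adjacent-labelled liver, and Plagl1, Cdkn1c and Ndn were not called in either. In tumor, 10 of 23 tested probe sets were called higher and 0 lower, for 4 of 9 genes. The background was 7.8% higher and 4.22% lower over all probe sets, and 15.1% of all genes had at least 1 probe set called either way. By adjusted p alone 18 of the 23 passed in tumor (61.1% of all probe sets) and 17 in adjacent-labelled liver (60.9%). In adjacent-labelled liver, 11 were called higher and 2 lower, for 5 of 9 genes, where the background was 7.46% higher, 3.21% lower and 13.7% of genes. Probe sets of Meg3 and Rian, neighbours on chromosome 12, supplied 13 of the 23 tested probe sets, and 8 of the 10 increases in tumor and 9 of the 11 in adjacent-labelled liver. The median difference of the 23 was 0.62 in tumor and 0.59 in adjacent-labelled liver, beside -0.01 and -0.02 over all probe sets tested.

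**Figure D1:**
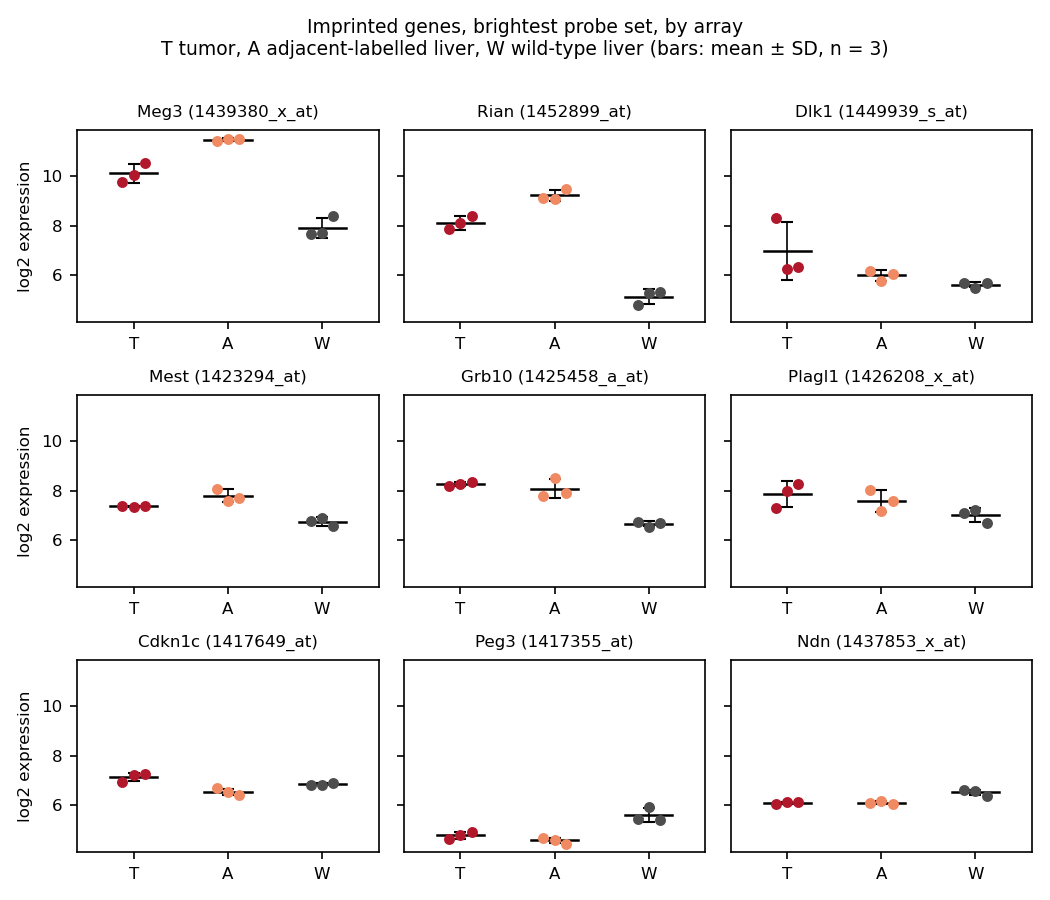
Log2 expression (vertical axis) of the brightest probe set of each of the 9 genes in every array, for tumor (T), adjacent-labelled liver (A) and wild-type liver (W). Points are pieces, horizontal lines are means and error bars are SD (n = 3). Meg3 and Rian stand highest in adjacent-labelled liver and lowest in wild-type liver, while Peg3 and Ndn are highest in wild-type liver.

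Meg3, a long noncoding RNA with growth-restraining activity in cultured cells, gave the clearest gain together with Rian. Its brightest probe set, 1439380_x_at, read 9.75, 10.04 and 10.53 in tumor, 11.40, 11.51 and 11.48 in adjacent-labelled liver and 7.65, 7.72 and 8.37 in wild-type liver. No 2 groups overlapped, and the adjacent-labelled pieces were the highest. The log2 difference from wild type was 2.19 in tumor (SE 0.21, limma adjusted p = 4.56e-06), which is 4.57-fold. In adjacent-labelled liver it was 3.55 (SE 0.21, adjusted p = 1.35e-07), or 11.7-fold. Tumor was lower than adjacent-labelled liver by -1.36 (SE 0.21, adjusted p = 0.000328). Because whole tissue was measured, more RNA per cell and more cells that make it cannot be told apart, here and for every gene below.

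The 11 probe sets of Meg3 fell into different kinds. There were 6 called higher in both comparisons against wild type, by 1.53 to 3.26 in tumor and 1.38 to 4.10 in adjacent-labelled liver. The largest was 1452905_at, at 7.91, 8.22 and 9.12 in tumor, 9.23, 9.20 and 9.36 in adjacent-labelled liver and 5.15, 4.79 and 5.54 in wild-type liver. Here too all tumor and adjacent pieces lay far above wild type. Among the 6, 1428765_at and 1436713_s_at had 0 wild-type arrays above the percentile and 1452905_at had 1. The size of these gains thus depends on background. Of the tested probe sets outside the 6, 1428764_at, 1429257_at and 1436057_at differed by at most 0.15 in any comparison (adjusted p = 0.11 to 0.975). They read between 6.40 and 7.36 on every array. Probe set 1452906_at differed by 0.36 in tumor (adjusted p = 0.0208) and 0.34 in adjacent-labelled liver (adjusted p = 0.0257). The dim 1429256_at read 4.63 to 4.74 in all 9 pieces and was not tested. The mean over the gene is thus a mixture. Probe sets ending in _x_at or _s_at can share probes with other transcripts, and which part of the gene each one reads was not determined here.

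Rian, a noncoding RNA that hosts small nucleolar RNAs and microRNAs, followed the same order of groups. Probe set 1452899_at read 7.85, 8.12 and 8.40 in tumor, 9.11, 9.09 and 9.47 in adjacent-labelled liver and 4.79, 5.28 and 5.32 in wild-type liver. All 3 groups were separate. It rose by 2.99 in tumor (SE 0.17, limma adjusted p = 9.37e-08) and by 4.09 in adjacent-labelled liver (SE 0.17, adjusted p = 1.19e-08). Probe set 1427580_a_at gave 2.56 and 3.83 for the same comparisons, and its wild-type level of 4.29 ± 0.35 (SD, n = 3) is within the dim range, so the size of that gain depends on background. Probe set 1440001_at rose in adjacent-labelled liver by 1.05 (adjusted p = 4.73e-05), and in tumor its difference was 0.55 (adjusted p = 0.00377), under the 2-fold limit. Its call was lost without wild-type replicate 2, at 0.98. Wild-type arrays above the percentile were 2 for 1452899_at and 1 for 1440001_at, so these sizes depend on background too. Tumor was below adjacent-labelled liver by -1.26 with 1427580_a_at (adjusted p = 0.000141) and by -1.10 with 1452899_at (adjusted p = 0.000385). The call of 1452899_at was lost without adjacent-labelled replicate 3 (-0.98) or tumor replicate 1 (-0.96).

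Dlk1, which encodes a membrane protein of fetal progenitor cells related to Notch ligands, lies in the same cluster but is expressed from the paternal copy. Its brightest probe set, 1449939_s_at, read 8.31, 6.25 and 6.34 in tumor, 6.17, 5.77 and 6.04 in adjacent-labelled liver and 5.68, 5.49 and 5.69 in wild-type liver. Tumor replicate 1 alone stood high, and the other tumor pieces lay just above the adjacent-labelled ones. The difference of tumor from wild type was 1.34 (SE 0.42, limma adjusted p = 0.0181). Without tumor replicate 1 it was 0.67 (adjusted p = 0.000857) and no longer 2-fold, so the call and its size rest on that piece. It was also lost without wild-type replicate 2 (1.28, adjusted p = 0.0514). Adjacent-labelled liver differed from wild type by 0.37 (adjusted p = 0.465), and tumor from adjacent-labelled liver by 0.97 (adjusted p = 0.0893). In the brightest probe sets of Meg3 and Rian, tumor replicate 1 was the lowest tumor piece. The second probe set, 1442724_at, read 4.12 to 4.49 over all arrays and was too dim to test.

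Around Meg3, few other genes were called. Mirg, the noncoding RNA after Rian, gave 1.00 in tumor (adjusted p = 0.000157) and 1.67 in adjacent-labelled liver (adjusted p = 3.34e-06) with probe set 1457030_at. Only 1 wild-type array had 1457030_at above the percentile, so its size depends on background. The brighter Mirg probe set 1440097_at gave 0.34 and 0.90, under the 2-fold limit. Among the 10 nearest tested genes around Meg3, 5 on each side by order in RefSeq and each by its brightest probe set, those called were Dlk1 and Rian against wild type in tumor and Rian in adjacent-labelled liver. Dio3os, Wdr25, Wars, Slc25a47, Slc25a29, Ppp2r5c and Gm19605 were not called in any comparison, although limma gave an unadjusted p under 0.05 for 7 of the 10 in each comparison against wild type. Over all genes, brightest probe sets were called higher in 8.42% and lower in 4.59% for tumor, and 8.29% and 3.22% for adjacent-labelled liver.

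**Figure D2:**
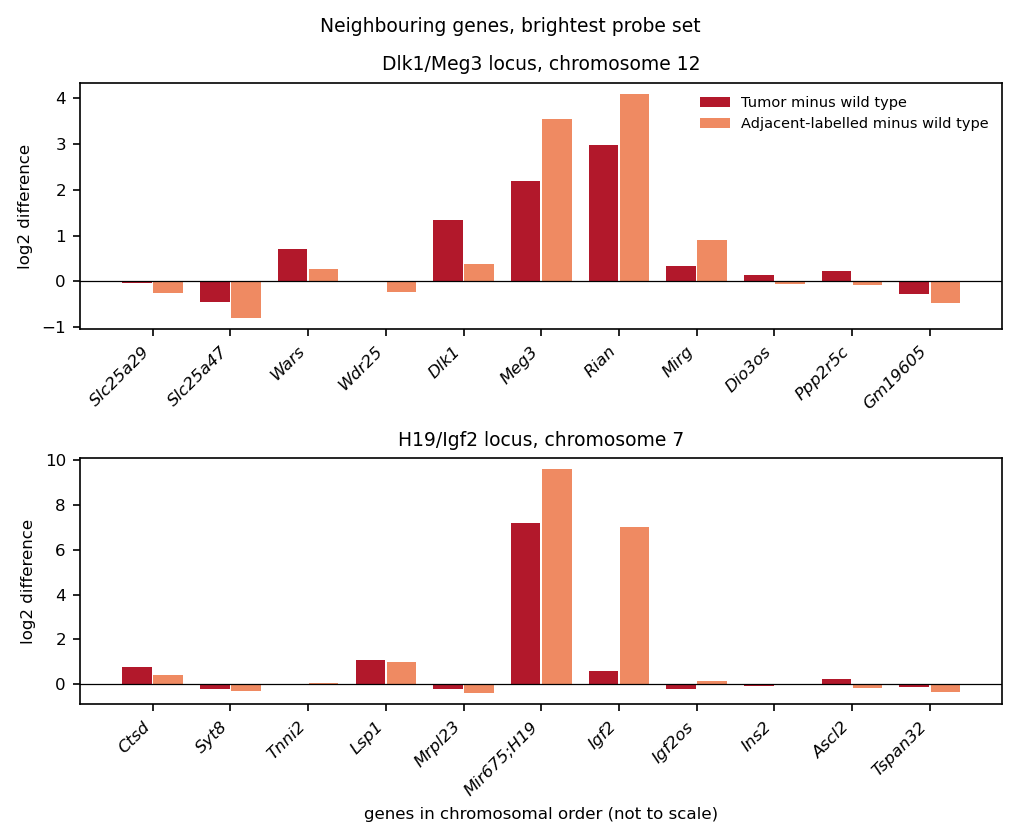
Log2 difference from wild-type liver (vertical axis) for tumor and adjacent-labelled liver, in genes ordered along the chromosome around Meg3 (top) and around the probe set annotated to Mir675 and H19 (bottom). Bars are differences of group means (n = 3 pieces each), the spacing is not to scale, and the Mir675;H19 bars are untested. Tall bars stand at Meg3, Rian and Mir675;H19 in both tissues, and at Igf2 in adjacent-labelled liver only (0.60 in tumor). Among the lower bars, Dlk1 reaches 1.34 in tumor.

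The probe set annotated to both Mir675 and H19, 1448194_a_at, read 10.83, 10.69 and 12.55 in tumor, 13.74, 13.77 and 13.80 in adjacent-labelled liver and 3.85, 4.36 and 4.36 in wild-type liver. All tumor and adjacent pieces were far above wild type, and tumor replicate 3 stood above the other tumor pieces. Since the annotation gives it 2 symbols, it is reported as a level and was given no test. Igf2, the neighbour on the other side of the shared control region, did not follow it in the tumor. Its probe set 1448152_at read 7.40, 7.05 and 7.40 in tumor, 13.73, 13.62 and 13.69 in adjacent-labelled liver and 6.84, 6.82 and 6.38 in wild-type liver. Tumor was below adjacent-labelled liver by -6.39 (SE 0.13, limma adjusted p = 5.79e-10) and differed from wild type by 0.60 (adjusted p = 0.00203). The dimmer Igf2 probe set 1415931_at was 2.38 above wild type in adjacent-labelled liver and differed by -0.21 in tumor (adjusted p = 0.0207). It passed the filter through its adjacent-labelled arrays alone. Of the 10 nearest tested neighbours of H19, Igf2 and the leukocyte gene Lsp1 were called, Lsp1 at 1.10 in tumor and 1.01 in adjacent-labelled liver.

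Grb10, a maternally expressed adaptor protein that damps insulin and growth factor receptor signalling, rose in both tissues of the heterozygous animal. Probe set 1425458_a_at read 8.19, 8.27 and 8.34 in tumor, 7.80, 8.52 and 7.92 in adjacent-labelled liver and 6.75, 6.55 and 6.70 in wild-type liver. Tumor and adjacent pieces overlapped with each other and not with wild type. It rose by 1.60 in tumor (SE 0.15, limma adjusted p = 5.18e-06) and by 1.41 in adjacent-labelled liver (SE 0.15, adjusted p = 1.57e-05), and tumor against adjacent-labelled liver gave 0.19 (SE 0.15, adjusted p = 0.359). Its dimmer probe sets did not show this. Probe set 1430164_a_at gave 0.24 in tumor (adjusted p = 0.0592) and 0.14 in adjacent-labelled liver (adjusted p = 0.253), and 1425457_a_at was too dim to test. Of its 10 neighbours, Plek was called higher in both comparisons against wild type, Fignl1 higher and Egfr lower in adjacent-labelled liver, and Ddc, itself imprinted in some mouse tissues, lower in tumor by -1.66.

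Mest, a paternally expressed hydrolase of mesoderm and growing fat tissue, had 1 probe set. It read 7.38, 7.35 and 7.38 in tumor, 8.08, 7.58 and 7.72 in adjacent-labelled liver and 6.79, 6.91 and 6.56 in wild-type liver. The groups did not overlap. It rose in adjacent-labelled liver by 1.04 (SE 0.12, limma adjusted p = 3.07e-05), a call just past the 2-fold limit that was lost without wild-type replicate 3 (0.94) or adjacent-labelled replicate 1 (0.90). In tumor it differed from wild type by 0.62 (adjusted p = 0.00127) and from adjacent-labelled liver by -0.42 (adjusted p = 0.0172), both under the limit. Its neighbours Copg2 and Klf14, of the same imprinted region, were not called. None of its 10 neighbours was called by limma in any comparison, while 6 to 8 of them had an unadjusted p under 0.05. Among them Mkln1os and Podxl came close to Mest in adjacent-labelled liver. Both differed by 1.0 after rounding (adjusted p = 3.15e-06 and 0.00106), just short of the limit.

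Plagl1, a zinc finger transcription factor that acts on other imprinted genes in mouse, varied from piece to piece. Probe set 1426208_x_at read 7.28, 8.0 and 8.28 in tumor, 8.04, 7.16 and 7.58 in adjacent-labelled liver and 7.11, 7.21 and 6.70 in wild-type liver. Tumor pieces lay just above wild type and adjacent-labelled pieces overlapped it. The difference was 0.85 in tumor (SE 0.26, limma adjusted p = 0.0173), which is under the limit, or 1.13 without tumor replicate 1 (adjusted p = 0.00238). Adjacent-labelled liver gave 0.59 (adjusted p = 0.0759). Probe set 1438588_at was flat, at -0.01 in tumor (adjusted p = 0.927) and -0.19 in adjacent-labelled liver (adjusted p = 0.0455).

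Cdkn1c, the maternally expressed cyclin-dependent kinase inhibitor p57, moved in opposite directions in the 2 tissues, by less than 2-fold. It read 6.94, 7.21 and 7.25 in tumor, 6.68, 6.55 and 6.43 in adjacent-labelled liver and 6.82, 6.82 and 6.88 in wild-type liver. The groups were separate but narrow. Tumor was 0.30 above wild type (SE 0.09, limma adjusted p = 0.0155), and adjacent-labelled liver differed from it by -0.28 (SE 0.09, adjusted p = 0.0199). The difference between the tissues was 0.58 (SE 0.09, adjusted p = 0.000411). In the same cluster Phlda2, a maternally expressed growth restrainer of placenta, rose by 1.54 in tumor (adjusted p = 1.47e-06) and 1.91 in adjacent-labelled liver (adjusted p = 3.34e-07). Beside these levels, 10 of 11 tested cell cycle genes were called higher in tumor and 8 of 11 in adjacent-labelled liver (8.42% and 8.29% of all genes). Among them was Mki67, at 2.15 in tumor and 2.52 in adjacent-labelled liver. Of these cell cycle genes, Top2a, Ccnb2 and Nusap1 had no wild-type array above the percentile and so had to differ. The part of proliferation in the Cdkn1c levels was not tested.

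Peg3, which is paternally expressed, fell in adjacent-labelled liver and was not called in tumor. Peg3 encodes a zinc finger protein tied to p53 signalling and to maternal behaviour in mouse. Its probe set 1417355_at read 4.64, 4.80 and 4.93 in tumor, 4.67, 4.60 and 4.45 in adjacent-labelled liver and 5.46, 5.92 and 5.42 in wild-type liver. All wild-type pieces were higher than all others, close to the bottom of the tested range. This probe set was tested through its wild-type arrays alone, so it had to differ and its size depends on background. It fell in adjacent-labelled liver by -1.02 (SE 0.13, limma adjusted p = 4.8e-05) and differed by -0.81 in tumor (adjusted p = 0.000258). The call was lost with cyclic loess (-0.90) and without wild-type replicate 2 (-0.86) or adjacent-labelled replicate 3 (-0.96). Probe set 1433924_at read 4.14, 4.32 and 5.26 in tumor, 3.94, 3.88 and 3.96 in adjacent-labelled liver and 5.47, 5.22 and 5.49 in wild-type liver. Tumor replicate 3 reached the wild-type range, and without it the tumor difference was -1.16 (adjusted p = 5.46e-06) in place of -0.82 (adjusted p = 0.00956). Probe set 1433924_at fell in adjacent-labelled liver by -1.47 (adjusted p = 0.00023). Its arrays above the percentile were 1 of tumor, 0 of adjacent-labelled liver and 2 of wild type, so this size too depends on background. The other 3 probe sets were too dim to test, at differences of -0.30 to -0.07. None of the 10 neighbours of Peg3, among them the imprinted Zim2 and Usp29, was called by limma, while 7 in tumor and 6 in adjacent-labelled liver had an unadjusted p under 0.05.

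Ndn, also paternally expressed, encodes necdin, a growth suppressor of the MAGE family studied mainly in neurons, and it was not called in either tissue. Of its 8 probe sets, only 1437853_x_at was bright enough to test. It read 6.04, 6.11 and 6.12 in tumor, 6.10, 6.16 and 6.03 in adjacent-labelled liver and 6.60, 6.57 and 6.39 in wild-type liver. Wild type was the highest, and the other groups overlapped. The differences were -0.43 in tumor (SE 0.07, limma adjusted p = 0.000311) and -0.42 in adjacent-labelled liver (SE 0.07, adjusted p = 0.000396), under the 2-fold limit. The 7 untested probe sets were lower than wild type with no overlap in both tissues, by -1.57 to -0.37 in tumor and -1.31 to -0.29 in adjacent-labelled liver. The brightest of these in wild-type liver, 1415923_at, read 3.65, 3.83 and 3.39 in tumor, 3.95, 3.90 and 3.79 in adjacent-labelled liver and 5.40, 5.34 and 4.84 in wild-type liver. Too few arrays had them above the percentile, so they are values only. Groups without overlap were common here, at 66.8% of all tested probe sets for tumor and 67.9% for adjacent-labelled liver against wild type, and the tested members had 18 of 23 in each. Of the 10 nearest tested neighbours of Ndn, only Nipa1 was called, higher in tumor by 1.28 (limma adjusted p = 1.37e-06). In adjacent-labelled liver Nipa1 differed by 0.94, under the limit. Over all genes, 8.42% were called higher in tumor.

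**Figure D3:**
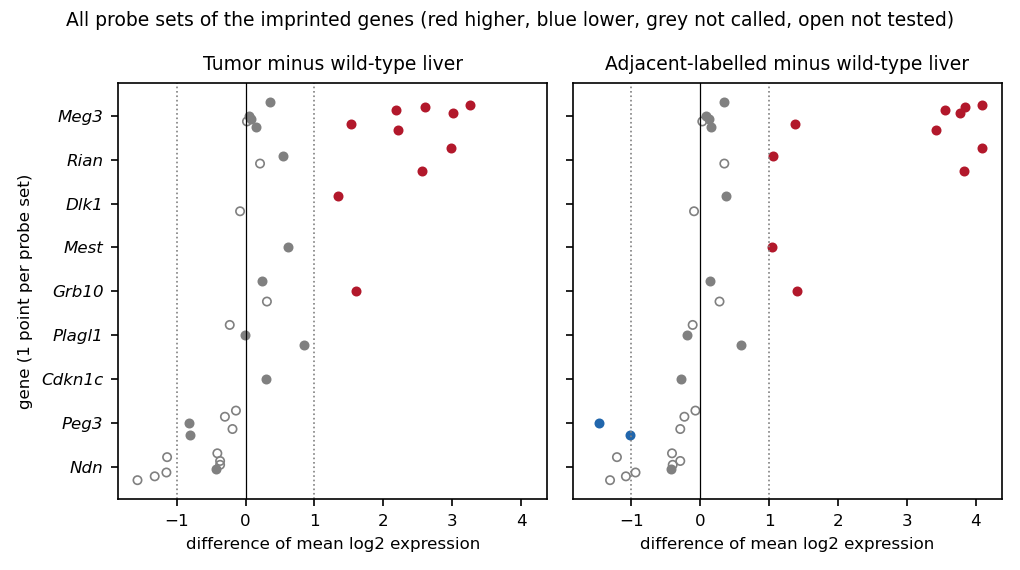
Difference of mean log2 expression from wild-type liver (horizontal axis) for each of the 38 probe sets of the 9 genes, in tumor (left) and adjacent-labelled liver (right). Each point is a probe set, red called higher, blue called lower, grey not called, open too dim to test, and dotted lines mark the 2-fold limit. The 6 Meg3 probe sets called higher lie to the right in both panels, while the others of that gene stay near 0.

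Among the tested probe sets, calls between tumor and adjacent-labelled liver of the same animal lay at the chromosome 12 noncoding RNAs. The untested Mir675;H19 probe set on chromosome 7 was also lower in tumor, by -2.42, with no overlap. Of the 23 tested probe sets, 5 were lower in tumor, 3 of Meg3 and 2 of Rian, where 2.47% of all probe sets were called lower. None was called higher (background 2.25%), and 6.26% of all genes had a called probe set against 2 of the 9. By adjusted p alone 10 of the 23 passed (43.6% of all probe sets), and the groups did not overlap in 12 (52.2%). At an unadjusted p under 0.05, limma had 4 higher and 9 lower at an unadjusted p under 0.05. For the other genes the differences were -0.42 for Mest, 0.19 for Grb10, 0.26 for Plagl1, 0.58 for Cdkn1c, 0.21 for Peg3, -0.01 for Ndn and 0.97 for Dlk1, each by its brightest probe set. Within the tumor, replicate 3 was the highest piece for 19 of the 23 probe sets, replicate 1 for 4 and replicate 2 for 0. Over all tested probe sets replicate 3 was highest for 38.4%. The brightest probe sets of Meg3 and Rian and the Peg3 probe set 1433924_at were among the 19. Mir675;H19, which is outside that count, was also highest in replicate 3.

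A further 60 imprinted genes were taken from general knowledge, of which 40 had a tested brightest probe set. In tumor, 6 were called higher and 4 lower (8.42% and 4.59% of all genes). In adjacent-labelled liver 5 were called higher and 2 lower (8.29% and 3.22%). Their median difference was 0.09 in tumor and 0.07 in adjacent-labelled liver, beside -0.013 and -0.008 over all genes. Between tumor and adjacent-labelled liver 3 were higher and 6 lower (2.1% and 2.94%). The increases against wild type were, in both tissues, Phlda2, Qpct and Impact. Impact, a translation regulator, rose by 1.45 in tumor and 1.39 in adjacent-labelled liver with its brightest probe set. Its other tested probe sets gave 0.06 to 0.37 in tumor and 0.09 to 0.15 in adjacent-labelled liver, under the 2-fold limit. Qpct, which forms pyroglutamate on peptides, rose by 1.02 in tumor and 2.73 in adjacent-labelled liver. Igf2r, the receptor that clears IGF2, rose by 1.49 in tumor, with H13 at 1.28 and Asb4 at 1.23. Asb4 was tested only because its tumor arrays lay above the percentile, with 0 of the 3 adjacent-labelled and 0 of the 3 wild-type arrays above it, so it had to differ and its size depends on background. In adjacent-labelled liver the remaining increases were Igf2 and Sgce, at 1.44.

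Fewer of these genes were called lower. The amino acid transporter Slc38a4 fell by -1.11 in tumor and -1.04 in adjacent-labelled liver, and the protease inhibitor Tfpi2 by -1.76 and -1.60 in the same order. Ddc, the aromatic amino acid decarboxylase, fell in tumor by -1.66. Mcts2, an imprinted gene copy inside an intron of H13, read 5.79, 5.23 and 7.14 in tumor, 8.09, 8.06 and 7.89 in adjacent-labelled liver and 7.84, 7.74 and 7.73 in wild-type liver. Tumor replicate 3 was nearest to the other groups, and whether its probes tell it from its parent gene was not determined. It fell in tumor by -1.71 (limma adjusted p = 0.00165), while its host H13 rose there. The other tested probe sets of H13 gave -0.62 to 0.21 in tumor, so the rise was seen with its brightest one alone. On chromosome 6, Sgce and Ppp1r9a, which lie in one imprinted cluster, were lower in tumor than in adjacent-labelled liver by -1.89 (adjusted p = 1.02e-06) and -1.86 (adjusted p = 1.14e-06). Others of that cluster differed, with Asb4 at 0.88 (adjusted p = 0.00126) and Tfpi2 at -0.16 (adjusted p = 0.178) for the same comparison. Tssc4, of the Cdkn1c cluster, was higher in tumor than in adjacent-labelled liver by 1.02.

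**Figure D4:**
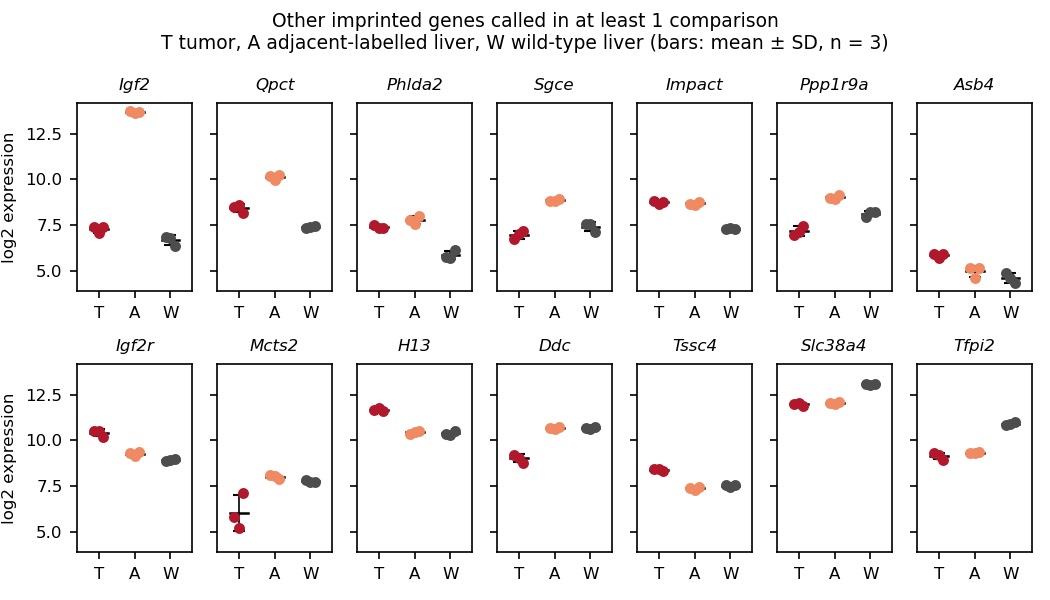
Log2 expression (vertical axis) in every piece for the 14 other imprinted genes called in at least 1 comparison, for tumor (T), adjacent-labelled liver (A) and wild-type liver (W). Points are pieces, lines are means and error bars SD (n = 3). Igf2 is high in adjacent-labelled liver alone, while Igf2r and H13 are highest in tumor and Slc38a4 and Tfpi2 highest in wild-type liver.

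Genes of imprinting control and the DNA methylation machinery were not called in tumor (0 of 23). Over all genes, 8.42% were called higher there and 4.59% lower. In adjacent-labelled liver 1 of 23 was called lower (3.22% of all genes) and 0 higher (8.29%). At an unadjusted p under 0.05, limma had 8 higher and 8 lower in tumor and 7 higher and 7 lower in adjacent-labelled liver. The called gene was Zfp445, a zinc finger protein that guards imprints, at 10.12 ± 0.10 in tumor, 9.87 ± 0.10 in adjacent-labelled liver and 10.93 ± 0.12 in wild-type liver (SD, n = 3). Its difference from wild type was -1.06 in adjacent-labelled liver (limma adjusted p = 1.41e-06) and -0.82 in tumor (adjusted p = 9.28e-06). Dnmt1, the maintenance methyltransferase, was 0.60 higher in tumor and 0.72 higher in adjacent-labelled liver, under the 2-fold limit. Of 11 fetal liver genes that are not imprinted, or their repressors, 4 were called higher in tumor and 3 in adjacent-labelled liver. The shares over all genes were 8.42% and 8.29%. Afp rose by 6.21 in tumor and 3.38 in adjacent-labelled liver, and Gpc3 rose by 4.10 in tumor but differed by -0.15 in adjacent-labelled liver (adjusted p = 0.634). Zhx2 and Zbtb20, which repress Afp, and in mouse Zhx2 also H19, differed from wild type by -0.14 to 0.04 (adjusted p = 0.296 to 0.673).

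Markers of several cell types also differed from wild type, not all in one direction. Over all genes, 8.42% were called higher and 4.59% lower in tumor, and 8.29% and 3.22% in adjacent-labelled liver. Of 15 stellate and mesenchymal markers, 8 were called higher and 1 lower in each of tumor and adjacent-labelled liver against wild type, among them Col1a1 at 2.66 in tumor and 3.15 in adjacent-labelled liver. Their summed intensity was 9259, 11820 and 12525 in tumor, 10095, 12618 and 9596 in adjacent-labelled liver and 4733, 5053 and 3464 in wild-type liver. Between tumor and adjacent-labelled liver 1 of the 15 was called higher and 0 lower (2.1% and 2.94% of all genes). Lrat, a marker of quiescent stellate cells, fell by -1.11 in tumor and -1.02 in adjacent-labelled liver, while the mesenchymal marker Des differed by 0.04 and -0.04. Of 10 endothelial markers 1 was called higher and 0 lower in tumor, and 2 higher and 1 lower in adjacent-labelled liver. Of 10 macrophage markers 4 rose and 1 fell in tumor and 4 rose and 2 fell in adjacent-labelled liver, with a summed intensity of 15464 to 18384 in tumor, 14615 to 15967 in adjacent-labelled liver and 7666 to 8099 in wild-type liver. Of 10 hepatocyte markers 0 rose and 2 fell in tumor, and 0 rose and 1 fell in adjacent-labelled liver. The fall in adjacent-labelled liver, and 1 of those in tumor, was Ass1 by a probe set above the percentile in wild type alone, so it had to differ. The same holds for the falls of the macrophage marker Cd163, and the cholangiocyte marker Cftr passed through adjacent-labelled liver alone. Cholangiocyte markers had 2 of 7 higher in tumor and 3 of 7 in adjacent-labelled liver, lymphocyte markers 2 of 9 and 0 of 9, and the 1 tested adipose or muscle marker was not called. The part of these cells in the imprinted gene levels was not tested.

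The genes with the pattern most like each called member were found by the root mean square difference over the 9 arrays, after subtracting each gene's wild-type mean. For Meg3 they were Cib3 (0.28), Sectm1a (0.31) and Smpdl3b (0.31), and Rian stood at rank 30 of 13887 genes (0.59). For Rian they were Aldh18a1 (0.22), Abcc12 (0.30) and Inava (0.35), with Meg3 at rank 18. For Grb10 they were St8sia4 (0.14), Adgrg1 (0.15) and H2-DMa (0.15). For Mest they were Mcm3 (0.11), Nup93 (0.13) and Stk11ip (0.13). For Peg3 they were Col27a1 (0.12), Tox (0.13) and Ccbe1 (0.14). For Dlk1 they were Gm20324 (0.44), Slc2a1 (0.44) and Rsad2 (0.46), farther away than for the other genes. Among the 9 arrays the groups are far apart, so likeness here is mostly likeness of the group means.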

How the data were processed

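RNA from 9 liver tissue pieces, 1 per array, was measured on Affymetrix 3′ expression arrays. Per the submitters' processing notes, Expression Console 1.3.1.187 was used for the deposited log2 values, which are RMA values. That method corrects background, equalises array distributions and summarises probes, which hides changes shared by most genes. Array medians were 5.76 to 5.81 and no arrays held identical values. Probe sets were named from the platform annotation, and the Entrez identifiers of 34754 matched RefSeq on GRCm38.p6. No detection calls were used, and the 3 arrays per group limit precision.

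Probe sets, not genes, were fitted with limma 3.58.1 in R 4.3.3 (lmFit and eBayes, all 9 arrays, 6 residual degrees of freedom), checked on simulated data. For gene lists, a gene was represented by its brightest probe set over the arrays. Summed intensities are sums of 2 to the power of the log2 values. Named genes are all members, Igf2, Sart1, Afp, Gpc3, called imprinted genes and neighbours, up to 4 called genes per other list and the 3 genes nearest in pattern. Mirg, Dnmt1, Cps1, Ass1, Cd163, Cftr, Top2a, Ccnb2, Nusap1, Zhx2, Zbtb20, Alb, Des, Copg2, Klf14, Zim2, Usp29 and uncalled neighbours were named after their values were seen. The members and lists were chosen with earlier results of these data known. Same-numbered arrays of different groups deviated together at r = -0.12 to 0.13, so the numbers were not taken as pairs. An exact permutation test of 3 against 3 cannot go below p = 0.1 and was not used.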

Additional observations from a re-analysis of the deposited data

Results flagged for a closer look

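The probe set annotated to Mir675 and H19, which enters no comparison because it has 2 symbols, was 9.58 above wild type in adjacent-labelled liver and 7.17 above it in tumor (log2, 3 pieces per group). It is the strongest signal at any of the listed genes, and its wild-type level of 4.19 ± 0.29 (SD, n = 3) is dim, so the size depends on background.

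The effect relative to wild type differed between tumor and adjacent-labelled liver, by the limma test of the difference itself, for Meg3 at -1.22 (1426758_s_at, adjusted p = 0.00057), -1.36 (1439380_x_at, adjusted p = 0.000328) and -1.24 (1452183_a_at, adjusted p = 0.00339). The same held for Rian at -1.26 (1427580_a_at, adjusted p = 0.000141) and -1.10 (1452899_at, adjusted p = 0.000385). In each of these 5 probe sets the tumor gain was the smaller. Cdkn1c had opposite signs against wild type, with a difference of 0.58 between the tissues (adjusted p = 0.000411). Both effects share the wild-type arrays.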

How the results depend on the processing

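The number of listed genes called was 4 for tumor and 5 for adjacent-labelled liver against wild type, and 2 for tumor against adjacent-labelled liver. It was 9, 8 and 5 with the adjusted p alone, and 2, 3 and 0 when all probe sets of a gene were averaged, which mixes in the dim and flat ones. With a minimum log2 difference of 0.58 it was 7 for tumor against wild type and 4 for tumor against adjacent-labelled liver. Leaving out each array in turn gave 3 to 5, 4 to 5 and 2 to 3. The replicate number as a block gave 4, 5 and 2, the same counts, and changed no call of a member probe set. For the other imprinted genes, whose alternatives were chosen after seeing the data, the counts were 10, 7 and 9. They were 27, 23 and 25 with the adjusted p alone, 16 for tumor against wild type with a minimum of 0.58, and 5 for tumor against adjacent-labelled liver with averaged probe sets. Leaving out arrays gave 9 to 11, 7 to 7 and 8 to 9.

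Signs turned only in small differences that were not called. For tumor against adjacent-labelled liver these were Ndn 1437853_x_at (0.0007 with array weights, 0.02 without adjacent-labelled replicate 2, 0.01 without tumor replicate 1), Meg3 1428764_at (0.02 to 0.08: 0.03 and 0.02 without adjacent-labelled replicates 2 and 3, 0.08 and 0.05 without tumor replicates 1 and 2), Meg3 1428765_at (-0.14 to 0.40 over the left-out arrays, the lowest without tumor replicate 3), Meg3 1452906_at (-0.00099 with array medians, -0.0014 with cyclic loess, -0.09 with array weights, -0.04 without adjacent-labelled replicate 2, -0.10 without tumor replicate 3) and Grb10 1430164_a_at (-0.0043 to 0.17 over the left-out arrays, the lowest without tumor replicate 1). For tumor against wild type it was Plagl1 1438588_at (0.08 with cyclic loess, 0.02 with array weights, 0.05 without wild-type replicate 3, 0.02 without tumor replicate 1). The cause was not tested. Dim probe sets, such as those of Ndn and Peg3, are limited by background, and 3 pieces of 1 organ per group cannot speak for other animals.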
